A study of Homo sapiens with 6 samples.

Results

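Distal 17q, the long arm of chromosome 17 from 59 Mb to the last bound region, held 2247 of the 175206 merged ERα-bound regions of the study. Peaks of the 6 libraries that overlapped by at least 1 bp were joined into 1 region, and every merged region past 59 Mb on chromosome 17 (build hg38) is described here. A region's strength is given as summit fragments, the number of sequenced DNA fragments piled up at the peak's highest point, recovered from the deposited fold and −log10 p. The first region, chr17:59094822-59095233, had 12 to 17 in the 4 libraries that list it. The last region before 59 Mb, chr17:58991688-58992178, had 17 to 42 in the 6 libraries. The stretch is usually called 17q23 to 17q25, but no table of chromosome bands was used here, so the regions are named by position and gene. Of the 2247 regions, 590 were listed in all 6 libraries with a mean of at least 50 fragments at the summit, and these are called well covered. Of the other 1657 regions, 431 were in all 6 lists with a lower mean and 1226 were missing from at least 1 list.

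The study mapped estrogen receptor α (ERα) with ChIP-seq, which sequences the DNA recovered with an antibody to the receptor. The cells were MDA-MB-453, an established human breast cancer line known for its androgen receptor and for lacking ERα. They carried an inducible wild-type ERα, the ligand-binding-domain mutant Y537S or the hinge mutant K303R. Every group received doxycycline at 2 µg/mL for 2 days that followed 2 days of growth in medium with 10% serum. For each receptor 1 library was made without estradiol (E2) and 1 with 1 nM E2, from 2 culture plates and with the antibody D8H8. The labels say neither whether the serum was stripped of hormones nor whether each line is 1 clone. With 1 library in each of the 6 groups, no difference within 1 receptor, or between receptors, has a replicate check. E2 was tested over the 3 receptors taken as pairs, a test that treats the receptors as responding alike. The intervals in brackets are at 95% and reflect counting error alone, and reads without molecular identifiers are not independent molecules.

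ERα is a nuclear receptor that binds DNA as a dimer at estrogen response elements, or through partner factors such as AP-1, mostly at enhancers far from gene starts. E2 stabilises its active shape, which Y537S can adopt without hormone, and K303R is known for hypersensitivity to hormone. Distal 17q is often gained in breast cancer, and its 17q23 part carries an amplicon with TBX2, PPM1D, RPS6KB1 and the microRNA gene MIR21.

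Sequences are shown for the 3 promoters where ERα regions of this arm bear most on the results. RefSeq promoters (GRCh38.p14, 250 bases before to 50 after the gene start) were available for 470 genes of distal 17q. A merged region overlapped 211 of them (44.9%, against 36.6% of 34961 promoters of the genome). At 14 the region was strong, which means among the top 10000 of some library by −log10 p. The summit lay inside the promoter at 3 of the 14. Capitals mark GGTCA, 1 arm of the estrogen response element, on either strand, and the AP-1 motif TGANTCA. The first promoter lies under a region that was strong in every library, the second has a summit 7 bp past its gene start, and the third belongs to the FDXR region, which was lower with K303R.
LOC124904059 promoter (chr17:75295269-75295568, plus strand): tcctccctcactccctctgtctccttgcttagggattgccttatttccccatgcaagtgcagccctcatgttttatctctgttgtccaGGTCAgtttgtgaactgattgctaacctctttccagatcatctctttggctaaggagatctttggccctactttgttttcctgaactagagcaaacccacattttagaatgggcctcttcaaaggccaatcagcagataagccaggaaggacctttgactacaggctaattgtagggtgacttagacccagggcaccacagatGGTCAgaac
ABCA5 promoter (chr17:69327084-69327383, minus strand): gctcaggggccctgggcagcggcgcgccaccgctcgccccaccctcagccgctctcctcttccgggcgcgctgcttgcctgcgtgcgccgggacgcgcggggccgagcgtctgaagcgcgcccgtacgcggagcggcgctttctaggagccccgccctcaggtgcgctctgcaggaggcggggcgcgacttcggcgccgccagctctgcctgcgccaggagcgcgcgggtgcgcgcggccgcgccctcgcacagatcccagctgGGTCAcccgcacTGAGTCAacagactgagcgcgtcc
FDXR promoter (chr17:74868704-74869003, minus strand): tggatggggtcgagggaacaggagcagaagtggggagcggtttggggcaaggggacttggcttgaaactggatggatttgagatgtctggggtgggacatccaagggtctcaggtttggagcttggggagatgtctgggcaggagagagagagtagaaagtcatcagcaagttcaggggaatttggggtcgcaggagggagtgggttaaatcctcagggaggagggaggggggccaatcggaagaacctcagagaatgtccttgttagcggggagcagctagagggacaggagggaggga

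GGTCA occurs in 36.8% of the 470 promoters and in 37.3% of all promoters. Among promoters with a strong region it occurs in 8 of the 14 (57.1%), against 51.8% of 872 over the series. On the arm 33.2% of promoters with any region have GGTCA and 39.8% of those with none, against 39.9% and 35.9% over the series. It is also contained in the full palindrome GGTCANNNTGACC, which none of the 470 promoters holds and which 0.0572% of all promoters hold. The AP-1 motif occurs in 8.94% of distal 17q promoters and in 7.68% of all. Of the 14 promoters under a strong region, ABCA5 has the AP-1 motif. A forkhead core (TGTTTAC) occurs in 2.98% of distal 17q promoters against 3.42% of all, and the androgen response element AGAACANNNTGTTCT in none against 0.00286%. These matches describe letters in a window and are not evidence of binding. Summits were placed by gene span only, and exons, introns and UTRs were not analysed here; 61.9% of the 2247 summits lay within a gene, against 49.6% over the series.

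LOC124904059 is a long noncoding RNA gene. Its region, chr17:75295144-75295902, had 373 and 381 fragments with wild type without and with E2, 379 and 388 in Y537S, and 273 and 331 in K303R. The summit was 7 bp before the gene start, and none of the 7 comparisons between libraries counted this region as changed. ABCA5 encodes a lipid transporter. Its region had 182 and 197 fragments with wild type, 157 and 152 in Y537S, and 169 and 145 in K303R, and was likewise counted as changed in no comparison. Of the other promoters under a strong region, those of MCRIP1 and SSTR2 are named after their values were seen. The region over MCRIP1, chr17:81833324-81834160, had 66 and 70 with wild type, 155 and 156 with Y537S, and 50 and 82 with K303R, and was counted as higher in Y537S in both treatments. SSTR2 encodes a somatostatin receptor. Its region, chr17:73164324-73164930, had 61 and 42, 62 and 44, and 86 and 86, and was counted as higher in K303R in both. Without E2 that call holds only where libraries are scaled by their summits, since scaling by the local background gave a ratio of 1.43 that did not pass.

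MIR21 lies at the end of VMP1 in the amplicon, and a well-covered region, chr17:59843219-59843630, lies 1882 bp past its hairpin. The mature microRNA of this gene is shown because it is the best-known breast cancer product of this stretch, with its seed (bases 2 to 8) in capitals, from RefSeq.
hsa-miR-21-5p: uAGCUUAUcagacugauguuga
The MIR21 region had 66 and 58 fragments with wild type without and with E2, 20 and 40 in Y537S, and 89 and 70 in K303R. Without E2 its scaled ratio to wild type was 0.306 (0.176 to 0.511) in Y537S and 1.85 (1.33 to 2.58) in K303R. Both passed the rule by which a region counts as higher or lower, a scaled ratio past 1.5-fold whose exact counting interval at the 0.001 level excludes 1. With E2 neither did, at 0.628 (0.409 to 0.956) and 1.37 (0.952 to 1.97). Where libraries were scaled by the local background in place of the summits, the K303R ratio without E2 was 1.37 and no longer passed. The local background at this region was 10.9, 4.07 and 15.1 fragments without E2 in wild type, Y537S and K303R, the same order as the summit counts, and its part was not tested. Of the 31 microRNA hairpins of distal 17q, 7 lie within 2500 bp of a well-covered region and 3 overlap one.

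The 6 lists held 106186 to 125850 regions on chromosomes 1 to 22 and X, of which 1469 to 1589 were on distal 17q. The share of a library's peaks on distal 17q was 1.27% to 1.47%. Total reads are not given, so depth is known only from the fragments at the summits, whose median over well-covered regions was 73 in K303R without E2 and 90 to 112 in the other libraries. Counts below are given as recovered, and ratios after each library was divided by its own median. Peak names carry a tag, which is 1 and the same in the K303R and wild-type lists and another in the Y537S lists. What the tag stands for is not stated, so a difference between Y537S and wild type cannot be told apart from a difference in tag.

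ERα regions were dense on distal 17q. There were 93.2 regions per Mb, against 59.2 on the rest of chromosome 17, 59.7 over the genome, 69.7 on chromosome 19 and 103 on chromosome 22. Well-covered regions numbered 24.5 per Mb on distal 17q, 13.7 on the rest of chromosome 17, 11.4 over the genome and 30.9 on chromosome 22. Protein-coding genes numbered 12.3 per Mb on distal 17q, which was more than the 6.75 of the genome, near the 12.5 of chromosome 22, and fewer than the 14.8 of the rest of chromosome 17 and the 24.2 of chromosome 19. There were 7.59 regions for each protein-coding gene, below the 8.84 of the genome and the 8.23 of chromosome 22, and above the 3.99 of the rest of chromosome 17 and the 2.88 of chromosome 19. The density of all merged regions on distal 17q was thus above that of the genome per Mb and below it per protein-coding gene. For well-covered regions the density was above that of the genome by both measures. There were 1.99 well-covered regions for each protein-coding gene on distal 17q, fewer than on chromosome 22. That was more than over the genome, on the rest of chromosome 17 and on chromosome 19. Of the 2247, 1021 were in all 6 lists (45.4%, 43.4% to 47.5% by Wilson's method, against 38.7% of the whole series), and 415 were in 1 list (18.5% against 21.7%).

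The density was uneven along the arm. The window from 74 to 75 Mb held the most regions, 169, of which 62 were well covered, and ranked 4th by regions among 2848 windows of 1 Mb. It holds 26 protein-coding genes, among them HID1, CDR2L and NHERF1. The window from 71 to 72 Mb held the fewest, 19 regions with 1 well covered, and no protein-coding gene. SOX9, the master transcription factor of cartilage and of sex determination, is the nearest protein-coding gene to its strongest region, 142281 bp away. The windows from 59 to 63 Mb, which hold the amplicon genes, were below the genome median of 58 regions, with 55, 42, 57 and 53. They held 13, 1, 7 and 3 well-covered regions, against a genome median of 9. In 17 of the 25 windows the count of merged regions was above the genome median of 58.

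**Figure D1:**
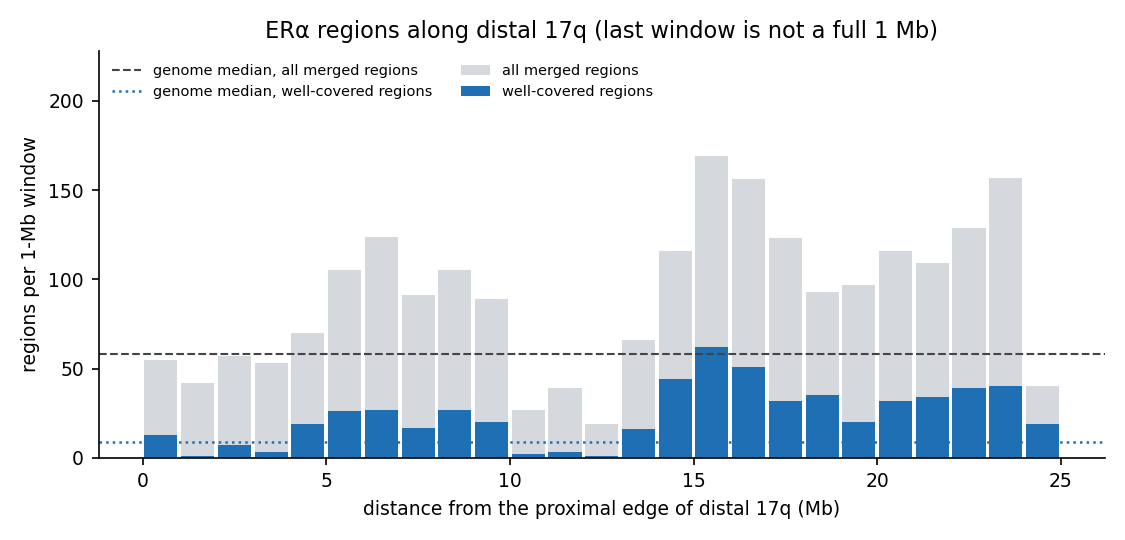
Merged regions (grey bars) and well-covered regions (blue bars) in each 1-Mb window against distance from the proximal edge of distal 17q in Mb, with the genome medians of 58 and 9 as lines. The windows 15 to 17 Mb from the edge hold 169 and 156 regions, and the windows 10 to 13 Mb from it hold 19 to 39.

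The strongest loci of distal 17q were the strongest of the series. Ranked by mean scaled summit fragments over the 6 libraries, the top 10 of all 175206 regions lay on this arm, as did 29 of the top 100 and 68 of the top 1000, against 1.28% of all regions. The most fragments of every library, 403 to 441, were also on distal 17q. The strongest region elsewhere ranked 11th, on chromosome 3, with 329 to 414 fragments. Of the 29, 16 lay in a block of 552 kb, chr17:74744133-75295902, which was picked out after the values were seen. It holds 114 regions, 51 of them well covered.

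The strongest region, chr17:74964555-74965521, lies in HID1, which encodes a protein of secretory vesicle formation. It had 434 and 417 fragments with wild type without and with E2, 403 and 408 in Y537S, and 437 and 441 in K303R. The CDR2L region, chr17:74991696-74992399, in a gene named for its relation to a cerebellar antigen, had 422 and 400, 399 and 399, and 430 and 426 in the same order. All 3 receptors thus had near-equal counts at these loci, with and without E2. The most fragments of a library, 403 to 441, varied less between libraries than the median over well-covered regions, 73 to 112. Counts at the top of every library can thus be level without equal binding, and this was not tested.

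NHERF1 encodes a PDZ scaffold protein of the apical membrane and is a known estrogen-induced gene of breast cancer cells. Its region, chr17:74760510-74761355, had 435 and 423 fragments with wild type, 372 and 369 in Y537S, and 433 and 430 in K303R. The region 585 bp from NAT9, chr17:74769580-74771488, had 433 and 416, 362 and 372, and 420 and 429. At both loci the Y537S libraries were the lowest.

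The region 81143 bp from RGS9, chr17:65308523-65309318, had 425 and 413 fragments with wild type, 364 and 395 in Y537S, and 378 and 410 in K303R. RGS9 is a GTPase-activating regulator of G protein signalling. The region 12306 bp from CACNG4, a calcium channel subunit, had 411 and 395, 346 and 353, and 416 and 418 (chr17:66951914-66952965). The lowest library at both loci was Y537S without E2.

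A further CDR2L region, 4846 bp from the gene at chr17:74981760-74983056, had 399 and 386 fragments with wild type, 380 and 384 in Y537S, and 393 and 400 in K303R. ARMC7, an armadillo-repeat protein gene, had 367 and 369, 402 and 409, and 374 and 401 at chr17:75114066-75114789, and was the locus of the 10 where the Y537S libraries had the most fragments. PITPNC1, which encodes a phosphatidylinositol transfer protein, had 398 and 387, 362 and 385, and 377 and 401 at chr17:67411194-67412397.

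None of the 10 was counted as changed in any of the 7 comparisons between 2 libraries. That too says little about equal binding, since these counts lie near the top of every library. The unscaled ratios of K303R to wild type without E2 were 0.889 to 1.02 over the 10. After scaling they were 1.22 to 1.40, since K303R without E2 has the lowest median over all well-covered regions. K303R thus stood level with wild type at these loci in raw counts and above it in scaled ratios.

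**Figure D2:**
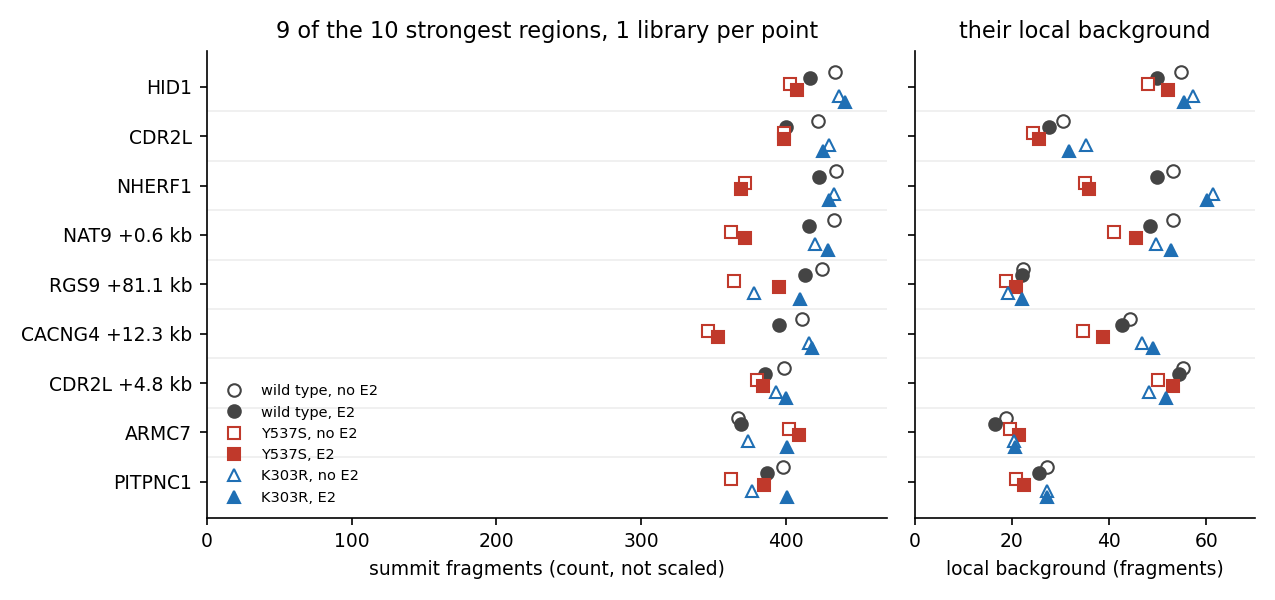
Unscaled summit fragments (left) and local background (right) of 9 of the 10 strongest regions, by gene and distance, with 1 point for each of the 6 libraries. Summit counts sit between 346 and 441 in every library, while the local background runs from 16.6 at ARMC7 to 61.5 at NHERF1.

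Strength on this arm depended on the measure. By the authors' fold enrichment over the local background, 0 of the top 10 and 1 of the top 100 regions of the series lay on distal 17q, and by their −log10 p 3 of the top 10 and 12 of the top 100. The fold at HID1 was 7.53 to 8.23 over the 6 libraries, with a local background of 48.1 to 57.2 fragments. At the RGS9 locus, first in the series by −log10 p, the fold was 17.9 to 18.8 and the background 18.8 to 22.4. The highest fold on the arm was at chr17:73815472-73816201, 171309 bp from SDK2, a cell adhesion gene, with 238 and 273 fragments with wild type, 196 and 218 in Y537S, and 149 and 204 in K303R. Its mean fold was 26.1 and its rank by fold 66.

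The local background was higher over the well-covered regions of distal 17q than over those of the series. Its median over well-covered regions was 7.75 to 9.26 fragments on the arm and 5.19 to 6.70 over the series in the 6 libraries. Of the 268 well-covered regions of the series with a mean of 300 fragments or more, 44 (16.4%) were on this arm, against 1.45% of those under 75 fragments. The part of the background in the summit counts was not tested.

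**Figure D3:**
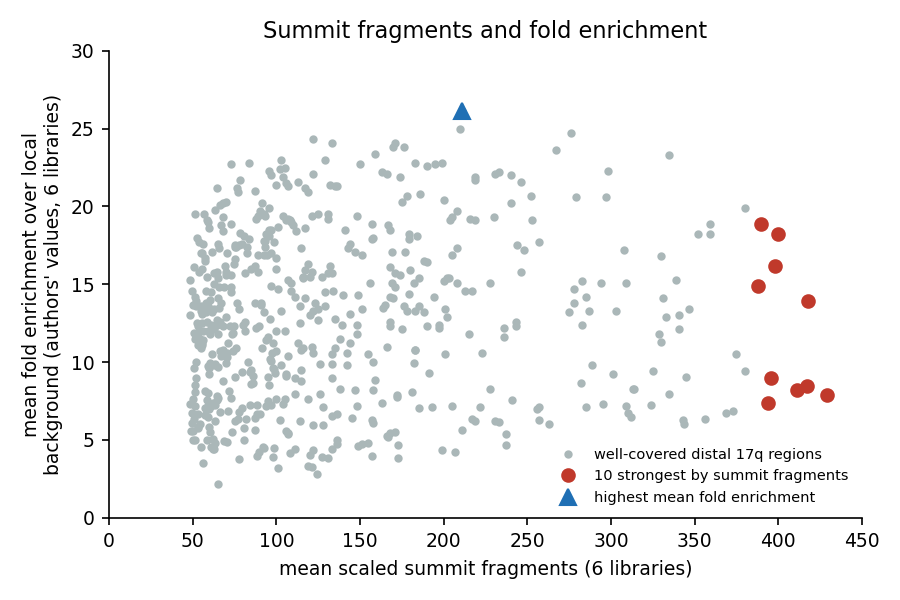
Mean fold enrichment (authors' values) against mean scaled summit fragments for the 590 well-covered regions of distal 17q. The 10 strongest by fragments (red) have mean folds of 7.38 to 18.9, under the 26.1 of the region near SDK2 (blue triangle).

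The libraries with and without E2 differed at few regions when scaled by their summits, and at more in K303R when scaled by the local background. A count of higher or lower regions, by the rule given with MIR21, compares 2 libraries, not 2 conditions, and more receptor per site and more cells with a bound site cannot be told apart. In wild type, E2 gave 22 of the 590 regions as higher (3.73%) and 3 as lower (0.508%), against 1.55% and 0.684% of the 33626 well-covered regions of the series. In K303R 22 were higher (3.73%) and 13 lower (2.20%), against 2.05% and 1.05%. With the background scaling K303R had 128 of the 590 regions higher with E2 and none lower, against 4698 and 13 of the 33626 of the series. In Y537S none was higher or lower, against 0.0862% and 0.0833%. The median log2 ratio was -0.01, -0.01 and -0.03 in wild type, K303R and Y537S. The difference between receptors in the response to E2 was not tested.

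With the 3 receptors as pairs, limma's moderated test with Benjamini-Hochberg adjustment gave 8 of the 590 regions as higher with E2 (1.36%) and 11 as lower (1.86%) at an adjusted p under 0.05, against 0.425% and 0.110% of the series. The 8 were the 7 regions described next and a region in GAA, chr17:80104890-80105263, with 108 and 157 fragments with wild type without and with E2, 112 and 158 in Y537S, and 83 and 177 in K303R. In all 3 receptors the GAA count was higher with E2, by 0.54 on the log2 scale (limma, adjusted p = 0.0298). The 11 lower regions held several of the strongest loci named above, such as CDR2L at chr17:74991696-74992399, with a log2 difference of -0.20 (limma, adjusted p = 0.00986), and HID1 at chr17:74964555-74965521, with -0.18 (limma, adjusted p = 0.0195). Their unscaled counts were near-equal, and with the background scaling none of the 590 was lower, with 3 at an unadjusted p under 0.05, and the differences at CDR2L and HID1 were -0.04 and -0.02. With that scaling 19 were higher, against 492 of the 33626 regions of the series. Without the wild-type pair 2 regions were higher and 3 lower, without K303R 1 and 0, and without Y537S 57 and 33, so the counts depend on each receptor. Over the series these counts were 8 and 6, 4 and 0, and 1469 and 822.

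The rule was met upward by E2 both in wild type and in K303R at 7 regions (1.19%, against 0.372% of the series), which lay in BTBD17, SLC38A12, FADS6, GGA3, CCDC40, RPTOR and TBCD. FADS6 encodes a protein of the fatty acid desaturase family. Its region, chr17:74880687-74881316, had 45 and 97 fragments with wild type without and with E2, 149 and 178 in Y537S, and 31 and 108 in K303R. The ratio for E2 was 2.11 (1.47 to 3.08) in wild type, 2.83 (1.88 to 4.36) in K303R and 1.06 (0.845 to 1.32) in Y537S. The counts without E2 were low with wild type and K303R, and both Y537S counts were above all others.

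TBCD encodes a tubulin folding cofactor. Its region, chr17:82795014-82795637, had 95 and 174 fragments with wild type, 197 and 218 in Y537S, and 34 and 139 in K303R, a ratio for E2 of 1.80 (1.39 to 2.33), 0.978 (0.803 to 1.19) and 3.32 (2.27 to 4.98) in that order. The region of SLC38A12 (older symbol TMEM104), chr17:74794823-74795392, had 68 and 166, 247 and 264, and 72 and 145. The BTBD17 region, chr17:74361460-74362007, had 38 and 87, 132 and 140, and 55 and 137. At each of these 3 loci Y537S without E2 was above wild type without E2.

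GGA3 encodes an adaptor of Golgi-to-endosome transport. Its region, chr17:75237954-75239057, had 116 and 186 fragments with wild type, 286 and 332 in Y537S, and 98 and 224 in K303R. CCDC40, a gene of motile cilia, had 99 and 165, 168 and 194, and 83 and 173 at chr17:80085877-80086485. RPTOR, the raptor subunit of the growth-controlling complex mTORC1, had 102 and 159, 80 and 121, and 56 and 119 at chr17:80858339-80858881. RPTOR was the locus of the 7 where Y537S without E2 was below wild type without E2. The choice of the 7 used that wild-type library, so its low counts there are part of the choice.

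**Figure D4:**
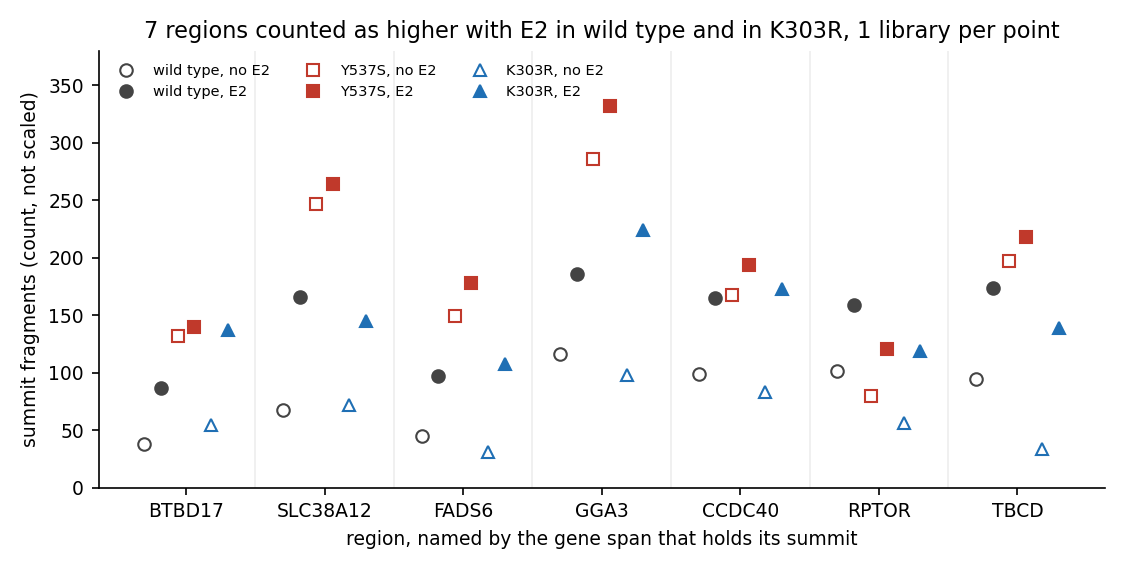
Unscaled summit fragments of the 7 regions raised with E2 by the rule for both wild type and K303R, with 1 point for each of the 6 libraries. Filled symbols (E2) are above open ones (no E2) for wild type and K303R at all 7 regions, which is how they were chosen, and the Y537S counts run from 80 at RPTOR to 332 at GGA3.

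Other regions ranked by their mean response in wild type and K303R were counted in 1 of them. The region 37770 bp from TMEM235, chr17:78278385-78279272, had 17 and 59 fragments with wild type, 67 and 75 in Y537S, and 46 and 95 in K303R, with a ratio for E2 of 3.40 (1.96 to 6.23) in wild type. BAIAP2, an actin adaptor gene, had 24 and 50, 85 and 104, and 21 and 67 at chr17:81115248-81115880, with a ratio of 2.59 (1.57 to 4.45) in K303R. QTGAL (older symbol B3GNTL1) had 24 and 47, 89 and 120, and 20 and 63 at chr17:83024402-83025154, with 2.56 (1.52 to 4.46) in K303R.

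Over the 22 regions higher with E2 in wild type, the median count was 79.5 without and 143 with E2, which the choice fixed. The same regions had 132 and 140 in Y537S and 54.5 and 113 in K303R. In the K303R libraries, which the choice did not use, 22 of the 22 had a ratio for E2 above 1 with a median log2 of 0.61, and over the 520 such regions of the series 486 did, with 0.63. In Y537S it was 10 of 22 with -0.02, and 281 of 520 with 0.02. The regions of distal 17q thus had values close to those of the whole series.

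The 5 regions with the largest mean fall with E2 over wild type and K303R follow. SEPTIN9 encodes a cytoskeletal GTP-binding protein, and its region chr17:77365703-77366324 had 78 and 30 fragments with wild type, 46 and 38 in Y537S, and 70 and 61 in K303R, with a ratio for E2 of 0.377 (0.239 to 0.581) in wild type. A region in PITPNC1, chr17:67606509-67607230, had 128 and 92, 84 and 107, and 60 and 28, with 0.379 (0.233 to 0.602) in K303R. The region 306 bp from SMARCD2, a SWI/SNF chromatin remodelling subunit, had 83 and 58, 51 and 55, and 62 and 31 (chr17:63842495-63843348), with 0.406 (0.255 to 0.634) in K303R. With the summit scaling these falls were counted in 1 receptor each. With the background scaling no region was lower with E2 in K303R, and the PITPNC1 and SMARCD2 ratios were 0.498 and 0.533 and did not pass.

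TEX2 had 120 and 63 fragments with wild type, 61 and 65 in Y537S, and 63 and 43 in K303R at chr17:64202538-64203223, with a ratio for E2 of 0.515 (0.373 to 0.704) in wild type. SMURF2, a ubiquitin ligase of TGF-β signalling, had 132 and 88, 43 and 43, and 107 and 77 at chr17:64638540-64638993, with 0.584 (0.430 to 0.790) in K303R, which the background scaling moved to 0.767, no longer passing. At both loci the Y537S counts differed little between treatments.

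Regions above and below wild type were both frequent with Y537S. Without E2, 75 of 590 regions were higher (12.7%) and 54 lower (9.15%), against 8.05% and 9.15% of the series. With E2, 50 were higher (8.47%) and 64 lower (10.8%), against 6.06% and 8.59%. In both treatments 34 were higher (5.76%, against 3.35% of the series) and 41 lower (6.95%, against 4.79%), and none changed direction between treatments. The median log2 ratio was -0.01 without E2 and -0.05 with E2, against -0.06 in both over the series. Scaling by the local background instead moved the share of higher among called regions from 58.1% to 84.3% without E2 and from 43.9% to 72.5% with E2. That scaling moved the median log2 ratio of all well-covered regions of the series to 0.22 and 0.12, and the values below are relative to the summit scaling.

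The 5 regions with the largest ratios of Y537S to wild type lay in or beside DNAH17, PRKCA, DNAI2, BAHCC1 and FASN. DNAH17 encodes a dynein heavy chain of the axoneme, and its region chr17:78429037-78429878 had 40 and 49 fragments with wild type without and with E2, 153 and 197 in Y537S, and 47 and 70 in K303R. The Y537S to wild-type ratio was 3.86 (2.71 to 5.62) without and 3.66 (2.67 to 5.11) with E2. PRKCA, the gene of protein kinase Cα, had 38 and 71, 172 and 191, and 55 and 91 at chr17:66522879-66523497, with ratios of 4.57 (3.20 to 6.68) and 2.45 (1.86 to 3.26). Both Y537S counts were above all 4 others at these loci.

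The region 341 bp from DNAI2, a further axonemal dynein gene, had 24 and 43 fragments with wild type, 105 and 97 in Y537S, and 43 and 82 in K303R (chr17:74314849-74315531). BAHCC1, which encodes a chromatin reader protein, had 20 and 44, 91 and 95, and 24 and 46 at chr17:81432962-81434070. FASN encodes fatty acid synthase, and a region in it had 26 and 34, 96 and 88, and 35 and 41 at chr17:82085373-82086688. The Y537S ratio was 4.42 (2.82 to 7.20), 4.60 (2.81 to 7.88) and 3.73 (2.40 to 6.00) without E2 at DNAI2, BAHCC1 and FASN. Each of these regions passed the minimum mean of 50 through its Y537S counts, and the mean of its other libraries was below it. Their high Y537S ratios are thus in part a result of that minimum.

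Regions lowest with Y537S lay in TMEM94, SDK2, TANC2 and VMP1 and near TNRC6C. The SDK2 region, chr17:73564251-73565429, had 204 and 204 fragments with wild type, 76 and 68 in Y537S, and 220 and 273 in K303R, a Y537S ratio of 0.376 (0.285 to 0.492) without and 0.304 (0.227 to 0.401) with E2. VMP1 encodes a membrane protein of autophagy and lies in the amplicon. Its region, chr17:59786385-59787147, had 78 and 54, 25 and 22, and 87 and 103, with ratios of 0.324 (0.198 to 0.514) and 0.371 (0.215 to 0.620). At both loci the 2 Y537S libraries were the lowest and the K303R libraries the highest.

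TMEM94 had 71 and 63 fragments with wild type, 18 and 20 in Y537S, and 91 and 75 in K303R at chr17:75459344-75460252. TANC2, a postsynaptic scaffold gene, had 61 and 65, 22 and 23, and 76 and 74 at chr17:63258681-63259397. The region 120809 bp from TNRC6C, which acts in microRNA-guided silencing, had 58 and 50, 23 and 18, and 82 and 94 at chr17:77836305-77837033. Each had the lowest counts in Y537S, and the ratios without E2 were 0.256 (0.144 to 0.434), 0.364 (0.213 to 0.602) and 0.401 (0.236 to 0.660). The last, near TNRC6C, did not pass without E2 with the background scaling, at 0.486.

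Along the arm, the proximal and distal parts differed in sign with Y537S. With the summit scaling and without E2, the 9 windows before 74 Mb with at least 10 well-covered regions had median log2 ratios of -0.36 to -0.11, and 8 of the 10 later windows had one above 0. With E2 the 9 windows ran from -0.50 to -0.05, and 6 of the 10 were above 0. The background scaling moves every window up alike, by the shift of the series given above, so the order of the windows does not depend on it and their sign does. In the window from 73 to 74 Mb, with 44 well-covered regions, the median log2 ratio was -0.36 without and -0.50 with E2, the lowest of these 19 windows in both treatments. In the window from 76 to 77 Mb, with 32 regions, it was 0.19 and 0.36. The local background ratio moved in step, with -0.60 and -0.64 in the former window and 0.13 and 0.39 in the latter, and its part was not tested. These stretches were picked out after their values were seen.

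K303R was above wild type over most of distal 17q when libraries were scaled by their summits, with a median log2 ratio of 0.20 without and 0.21 with E2, and at -0.24 and 0.07 when scaled by their local background. With the summit scaling and without E2, 43 of 590 regions were higher (7.29%) and 12 lower (2.03%), against 5.49% and 5.86% of the series. With E2, 48 were higher (8.14%) and 15 lower (2.54%), against 6.33% and 7.89%. In both treatments 22 were higher (3.73%, against 2.58%) and 6 lower (1.02%, against 3.54%), and none changed direction. Fewer regions were thus lower than in the series, while the share higher was nearer to it. The median was 0.04 and 0.05 over the series, 0.14 and 0.16 on the rest of chromosome 17, 0.43 and 0.40 on chromosome 19 and 0.17 and 0.20 on chromosome 22.

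The sign of the K303R difference depended on the scaling. Scaling by the local background gave 8.24% higher among called regions in place of 78.2% without E2, and 58.5% in place of 76.2% with E2. The median of all well-covered regions moved to -0.39 and -0.09. A scale factor moves every region alike, so the median of distal 17q lies 0.16 above that of the series in both treatments whichever scaling is used. Other choices can change this difference. It was 0.10 in both treatments with a minimum of 100 fragments, 0.17 and 0.18 with a minimum of 20, and 0.12 and 0.11 when ratios were centred within strata of fragments. The local background itself was 0.14 and 0.16 above the series (log2 ratio of K303R to wild type without and with E2), and its part was not tested. For E2 in K303R the same scaling gave 100% higher in place of 62.9%, and a median of 0.36 over the series. For E2 in wild type it gave 92.1% in place of 88.0%.

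The excess over the series was larger among weaker regions. Under 75 fragments the median log2 ratio of K303R to wild type was 0.19 without and 0.25 with E2 over 164 regions of distal 17q, against -0.06 and -0.05 over the series. From 200 to 300 fragments it was 0.15 and 0.18 over 71 regions, against 0.21 and 0.16. At 300 fragments or more it was 0.34 and 0.20 over 44 regions, against 0.34 and 0.21. By window, 17 of 19 medians without E2 and 16 of 19 with E2 were above the median of the series.

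**Figure D5:**
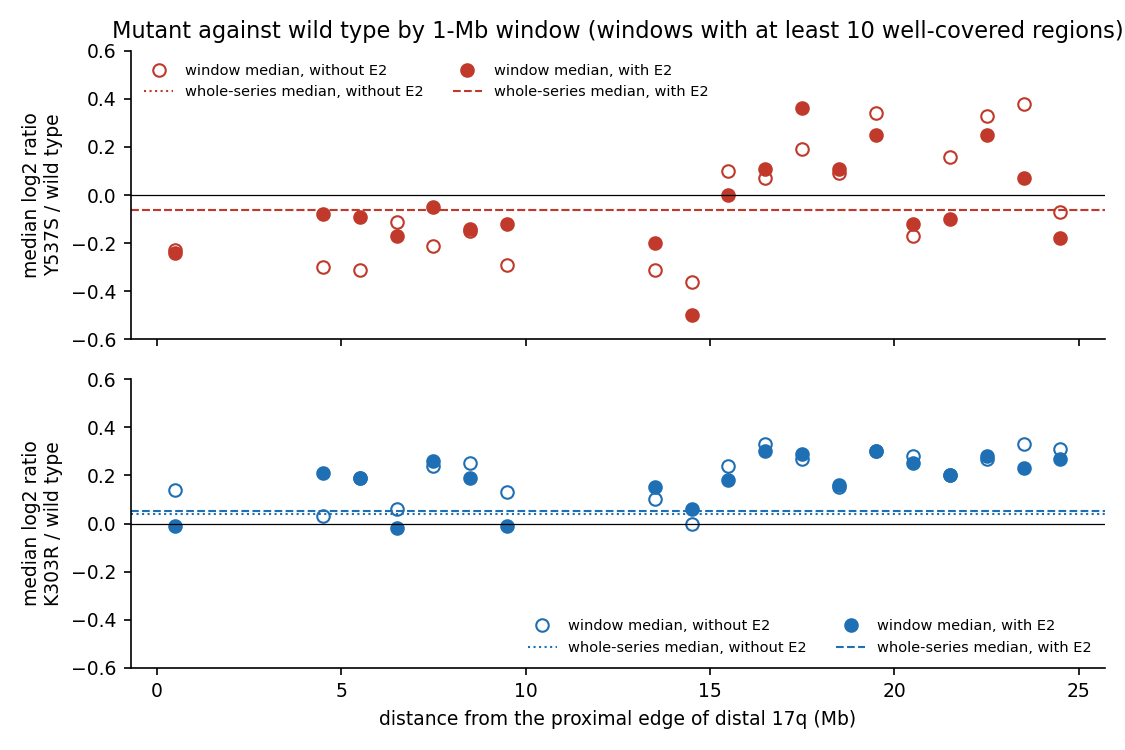
Median log2 ratio of Y537S (top) and K303R (bottom) to wild type in each 1-Mb window with at least 10 well-covered regions, against distance from the proximal edge of distal 17q in Mb. Y537S medians run from -0.50 to 0.38 and change sign along the arm, while K303R medians run from -0.02 to 0.33 with this summit scaling (the median over the arm without E2 is -0.24 with the background scaling), with 17 of 19 above the whole-series line without E2 and 16 of 19 with E2.

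GPRC5C, an orphan G protein-coupled receptor gene, had the largest mean ratio to wild type with K303R over both treatments. Its region, chr17:74442776-74444130, had 52 and 38 fragments with wild type without and with E2, 39 and 34 in Y537S, and 108 and 100 in K303R, with ratios of 2.85 (2.03 to 4.04) and 2.98 (2.03 to 4.46). TBC1D16, which encodes a Rab GTPase-activating protein, had 75 and 60, 70 and 57, and 148 and 157 at chr17:79993043-79994103, with 2.70 (2.03 to 3.62) and 2.97 (2.19 to 4.06). Both K303R counts were above all 4 others at these loci. The GPRC5C region passed the minimum mean of 50 through its K303R counts, and the mean of its other libraries was below it. The TBC1D16 region was above that minimum without them.

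The region 11739 bp from RNF157, a ubiquitin ligase gene, had 75 and 53 fragments with wild type, 41 and 27 in Y537S, and 128 and 94 in K303R at chr17:76251951-76252521. As at GPRC5C, its K303R counts carried it past the minimum mean. The TMEM235 region named above had K303R ratios of 3.71 (2.08 to 6.90) without and 1.82 (1.31 to 2.57) with E2, and the DNAI2 region 2.45 (1.46 to 4.23) and 2.16 (1.48 to 3.20). With the background scaling the TMEM235 ratio with E2 was 1.66 and the DNAI2 ratio without E2 1.82, and neither passed. Both were counted as higher in Y537S without E2 as well, from the same wild-type library, and DNAI2 also with E2.

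FDXR, the mitochondrial ferredoxin reductase of steroid and iron-sulfur metabolism, was the strongest of the 5 regions lowest with K303R. The region, chr17:74868192-74868906, overlaps the promoter printed above, and its summit lies 190 bp past the gene start. It had 279 and 334 fragments with wild type, 313 and 313 in Y537S, and 97 and 193 in K303R. The K303R ratio was 0.476 (0.374 to 0.602) without and 0.655 (0.546 to 0.784) with E2, and the E2 ratio within K303R was 1.61 (1.26 to 2.08). The local background was 15.6 to 19.5 fragments in the wild-type and Y537S libraries and 8.06 and 10.5 in K303R, so it was lowest in the same libraries, and its part was not tested. The promoter holds none of the 5 motifs searched.

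AXIN2 is a feedback inhibitor and target gene of WNT signalling, and 2 of the 5 regions lie beside it. The region 4224 bp away, chr17:65523968-65524652, had 164 and 180 fragments with wild type, 99 and 84 in Y537S, and 75 and 80 in K303R, with K303R ratios of 0.626 (0.470 to 0.828) and 0.504 (0.382 to 0.659). The region 65135 bp away, chr17:65463174-65463730, had 84 and 86, 104 and 136, and 26 and 39, with 0.424 (0.262 to 0.665) and 0.514 (0.343 to 0.759). The former had its lower counts in both mutants and the latter in K303R. The Y537S ratio of the former did not pass without E2 with the background scaling, at 0.739.

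ACE, the angiotensin-converting enzyme gene, has a region 2745 bp away, chr17:63474070-63474621, with 88 and 84 fragments with wild type, 83 and 122 in Y537S, and 31 and 32 in K303R. KCNJ2, an inward-rectifier potassium channel gene, has one 91667 bp away, chr17:70271228-70272087, with 117 and 148, 55 and 67, and 47 and 52. The K303R ratios were 0.483 (0.310 to 0.734) and 0.432 (0.278 to 0.656) at ACE, and 0.550 (0.384 to 0.778) and 0.398 (0.285 to 0.550) at KCNJ2.

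The genes of the arm were then read by role, in 9 lists with 110 genes. A gene counts as near a strong region where a summit lies in its span or within 25 kb. Of the 110, 64 were near one of some library (44 with a window of 5 kb and 94 with one of 100 kb). Among the 295 protein-coding genes of distal 17q it was 193 (65.4%), against 40.7% of 19974 over the series. E2 in Y537S gave no region near any of the 9 lists as higher or lower. The counts near each list below are read against the shares over all 590 regions, which were 3.73% higher and 0.508% lower for E2 in wild type, 12.7% and 9.15% for Y537S without E2, and 7.29% and 2.03% for K303R without E2. With the background scaling those counts become 35 and 3, 129 and 24, and 7 and 78 of the 590. Over the 33626 of the series they are 904 and 79, 5831 and 1158, and 216 and 7619.

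Of the 17 amplicon genes, 4 were near a strong region of some library, and each had a merged region of any strength within reach. The strongest lay 5567 bp from TBX2, a repressor of senescence genes, at chr17:61414667-61415507, and within 22202 bp of BCAS3, with 163 and 196 fragments with wild type, 180 and 185 in Y537S, and 106 and 192 in K303R. VMP1 had 187 and 185, 159 and 172, and 122 and 140 at chr17:59761228-59761973. PTRH2 was the fourth, in 1 library. The phosphatase gene PPM1D had 15 and 19, 7 and 10, and 26 and 21 at its strongest region, and RPS6KB1, the S6 kinase gene, 78 and 77, 104 and 122, and 69 and 89. Of the 14 well-covered regions near the list, 1 was higher with E2 in wild type (7.14%), and 1 was higher (7.14%) and 3 were lower (21.4%) in Y537S without E2.

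All 7 hormone-responsive genes were near a strong region of some library. LLGL2, a cell polarity gene, had 319 and 301 fragments with wild type, 277 and 298 in Y537S, and 289 and 307 in K303R at chr17:75577698-75578243. FASN had its strongest region 5842 bp away in CCDC57, with 283 and 265, 173 and 182, and 246 and 271 at chr17:82103568-82104458, and here Y537S was lower, with ratios of 0.617 and 0.625. With the background scaling these were 0.749 and 0.710 and did not pass. The FASN region described with Y537S above was counted as higher. Of 42 well-covered regions near the list, none was higher or lower with E2 in wild type, and 8 were higher (19%) and 3 lower (7.14%) in Y537S without E2.

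Of 18 signalling genes, 12 were near a strong region. AXIN2 had 382 and 374 fragments with wild type, 367 and 391 in Y537S, and 362 and 388 in K303R at its strongest region, 13723 bp away at chr17:65514329-65515132. That region was near-constant, unlike the 2 AXIN2 regions lower with K303R. RGS9 had 354 and 352, 330 and 343, and 307 and 354 in its own span. GRB2, an adaptor of growth factor receptors, is 22564 bp from the LOC124904059 region. Of 75 well-covered regions near the list, E2 in wild type gave 4 as higher (5.33%), and 9 were higher (12.0%) and 8 lower (10.7%) in Y537S without E2, shares close to those of the 590.

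Developmental regulators had 4 of 7 genes near a strong region. A region 14776 bp from FOXK2, a forkhead factor gene, had 257 and 237 fragments with wild type, 254 and 270 in Y537S, and 201 and 241 in K303R. A region 24422 bp from ZNF750, an epidermal differentiation factor, had 71 and 100, 148 and 164, and 73 and 100. The ZNF750 region was counted as higher in Y537S without E2, at a ratio of 2.11. SOX9 was near a strong region in 2 libraries, with 86 and 126, 80 and 93, and 96 and 89 at a region 10487 bp away.

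Among 20 channel and transporter genes, 11 were near a strong region, among them CACNG4 above and SLC16A5, a monocarboxylate transporter gene 4259 bp from the ARMC7 region. Of the 59 well-covered regions near them, 8 were higher (13.6%) and 3 lower (5.08%) in Y537S without E2, and 5 were higher (8.47%) and none lower in K303R without E2. With the background scaling 1 of the 59 was higher and 8 were lower in K303R without E2. Of 9 metabolic enzymes, 8 were near one. GAA, the lysosomal glucosidase, had 326 and 334 fragments with wild type, 272 and 316 in Y537S, and 332 and 343 in K303R. The strongest region within 25 kb of DCXR had 199 to 279 in the 6 libraries. Of the 34 well-covered regions near enzymes, E2 in wild type gave 3 as higher (8.82%) and none as lower.

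Of 9 adhesion and cytoskeleton genes, 7 were near a strong region. SEPTIN9 had 273 and 280 fragments with wild type, 192 and 197 in Y537S, and 264 and 305 in K303R at chr17:77286103-77288150, lower in Y537S with E2 at a ratio of 0.641, and at 0.727, not passing, with the background scaling. The strongest region within reach of DNAH17 lies in PGS1, 2404 bp from DNAH17, and had 218 and 237, 172 and 183, and 183 and 216 at chr17:78420960-78422005. Of 8 cell cycle and genome maintenance genes, 3 were near one. BRIP1, a helicase of DNA repair in the amplicon neighbourhood, had 364 and 332, 231 and 261, and 326 and 310 at chr17:61722976-61723776, lower in Y537S without E2 at 0.641, and at 0.777, not passing, with the background scaling. H3-3B had 180 to 217 within 10831 bp, and NUP85 is 2471 bp from the GGA3 region named with E2.

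Genes of other cell types had 8 of 15 near a strong region, among them immune and neuronal genes. GRIN2C, a glutamate receptor subunit gene of the brain, is 13800 bp from a region with 337 and 357 fragments with wild type, 308 and 317 in Y537S, and 295 and 353 in K303R. CD300LF of myeloid cells had 294 and 288, 288 and 318, and 147 and 242, and the neuronal splicing gene RBFOX3 258 and 276, 163 and 192, and 241 and 266. The growth hormone and placental lactogen genes GH1, GH2, CSH1 and CSH2 had no strong region.

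Regions found in some lists and not in others were mostly weak. On distal 17q, 62 regions were in both Y537S lists and in no other (2.76%, against 2.31% of the series), 28 in both wild-type lists (1.25% against 2.23%) and 25 in both K303R lists (1.11% against 1.51%). The strongest of the Y537S set lies in HID1, chr17:74960871-74961179, with 102 and 107 fragments. The strongest of the K303R set lies in NHERF1, chr17:74757435-74757812, with 159 and 152 fragments, and that of the wild-type set 9956 bp from KCTD2 with 86 and 82. A further 40 regions were in all lists but those of Y537S (1.78% against 2.11%) and 33 in all but those of K303R (1.47% against 3.11%). The strongest of the 40 also lies in NHERF1, chr17:74759906-74760355, with 185 and 193 fragments with wild type and 188 and 224 with K303R. Both NHERF1 regions lie close to a stronger region listed in all 6 libraries. The neighbours are chr17:74757990-74758750, with 291 to 391 fragments, and chr17:74760510-74761355, with 369 to 435. Their part in which lists hold the 2 weaker regions was not tested. A region missing from a list has no count there, so absence of a peak is not absence of fragments. The 3 lists with E2 alone shared 6 regions (0.267%, against 0.155% of the series). The 3 lists without E2 alone shared 3 (0.134% against 0.252%). The strongest of the 6, in RAB37 at chr17:74745716-74745989, had 95, 94 and 101 fragments with wild type, Y537S and K303R. Among regions in 1 list, the median of the highest summit was 11 fragments, against 86 for regions in all 6.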

How the data were processed

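ERα ChIP-seq was measured in 6 libraries of MDA-MB-453 cells, 1 for each receptor with and without E2. Reads were handled with Bowtie2, SAMtools, Picard, bedtools and MACS2 on hg38, per the submitters' processing notes; for the control library, thresholds and filters, nothing is given in those sources. Each deposited peak list holds a score per peak, a fold (ratio of the summit to its local background) and −log10 p and −log10 q values, all as the authors' peak caller gave them.

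The summit fragments and local background were recovered from the deposited fold (pseudocount 1) and Poisson −log10 p, which they matched within 0.01% for 100% of peaks; the recovery was tested on simulated data. Total reads are not in the lists. Libraries were scaled by their median summit over well-covered regions (scale 0.767 to 1.18). Ratios between 2 libraries have exact counting intervals. E2 over the receptors as pairs was fitted with limma on log2 scaled fragments (pseudocount 0.5, 2 residual degrees of freedom), adjusted over all well-covered regions and tested on simulated data. Text names the 10 strongest regions, the 5 most changed in each direction for E2 and for each mutant, the 3 genes of each list with the strongest region, and the windows with the most and fewest regions. Gene names, promoters and microRNAs come from RefSeq GRCh38.p14, and all 110 listed genes matched. No genome sequence was used. The regions, lists and rules were chosen with earlier results of these data known. Alternatives were the merging overlap, a −log10 q minimum of 5, presence in 2 lists, background scaling, other minimum counts, other gene windows and other rankings. A fold of 2 was also set but did not take effect. Python 3.11.15, numpy 2.4.6, scipy 1.17.1, pandas 2.3.3, matplotlib 3.10.9, R 4.3.3 and limma 3.58.1 were used. A few loci that the rule for named genes would give are not reported here.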

Additional observations from a re-analysis of the deposited data

How the results depend on the processing

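Of 110 alternatives, 65 kept their value within the limits set, 42 moved and 3 reversed. Those kept include a fold of 2, which returned the main counts although some regions counted had ratios under 2. That setting thus did not take effect and is no check. The gene windows of 5 and 100 kb, also counted as kept, gave 44 and 94 genes in place of 64. No analysis paired by replicate was possible, because the labels carry no replicate numbers that could serve as a block. The test of E2 with the receptors as pairs was chosen after seeing the data. In that test background scaling gave 19 regions higher and 0 lower in place of 8 and 11, and leaving out 1 receptor gave 1 to 57 higher and 0 to 33 lower. In the comparisons of 2 libraries, a group without its library has no value. Density fell to 76.0 regions per Mb for regions in at least 2 lists (46.7 over the series) and to 84.5 for a −log10 q of at least 5 (54.1). Ranked by fold, 0 of the 10 strongest remained, and by −log10 p 5 did. With scaling by local background the median log2 ratio was 0.09 for E2 in wild type, 0.38 for E2 in K303R, 0.26 for Y537S without E2, 0.14 for Y537S with E2 (reversed), -0.24 for K303R without E2 (reversed) and 0.07 for K303R with E2. The regions counted as higher were then 35, 128, 129, 95, 7 and 31 in that order, and those lower 0 for E2 in K303R, 24 and 36 for Y537S and 78 for K303R without E2. Over the 33626 regions of the series those higher were 904, 4698, 5831, 3981, 216 and 1188. Those lower were 13, 1158 and 1530, and 7619. With a minimum of 20 fragments 11 regions were lower with E2 in wild type, 1 was higher with E2 in Y537S (median -0.01), 34 were higher with E2 in K303R, 80 in Y537S with E2 (median 0.01, reversed), 75 in K303R without E2 and 78 with E2 (median 0.24). With a minimum of 100 the K303R medians were 0.13 and 0.13. Centring within strata of fragments, chosen after seeing the data, gave medians of -0.02 for E2 in Y537S, 0.04 for E2 in K303R, 0.08 and 0.06 for Y537S and 0.12 and 0.11 for K303R without and with E2. Leaving out regions of at least 300 fragments, also chosen after seeing the data, kept its values within the limits. The reversals with other scaling come from the scale factors alone; the cause of the other moves was not tested. Depth per library is unknown, and counting error limits what regions of few fragments can show.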
